A study of Mus musculus with 6 samples.

Results

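The 37 genes described here encode the fibrous scaffold of connective tissue and the surface and cytoskeletal proteins by which fibroblasts are recognised. They were chosen by symbol from the 24453 genes counted in each of 6 RNA sequencing libraries, and all 37 were found. Of these, 35 had enough reads to be tested, together with 14345 genes in all. Each library was made from sorted cells that the labels call hair follicle, taken from back skin of mice at birth (postnatal day 0). The 3 control libraries have no genotype in the labels beyond the word control, and the other 3, called mutant here and I53A in the plots, are Ring1a-/- Ring1b-/I53A. Ring1a and Ring1b are the ubiquitin ligases of Polycomb repressive complex 1, and the I53A substitution is known to impair the activity of Ring1b on histone H2A. The mutants lack Ring1a and carry a null allele beside the I53A allele, and no group separates these changes. Any Cre line or promoter behind the alleles was not given in the sources used here, nor whether libraries of a group came from separate animals, so the p-values measure the spread between these libraries, which may be partly technical.

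Fibroblasts secrete type I and type III collagen as the bulk of dermal fibrils. Type V collagen starts the fibrils and small proteoglycans such as decorin and lumican set their width. Fibrillin microfibrils with fibulins carry elastin, and lysyl oxidases crosslink collagen and elastin. Follicle epithelium is wrapped by a dermal sheath and sits on a dermal papilla, both made of fibroblast-like cells. Epithelial cells also make some of these proteins themselves, among them fibronectin and tenascin-C. In a sorted bulk sample, more cells of a type and more RNA per cell cannot be told apart.

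Depth and identity of the libraries were checked first. Totals ran from 14335156 to 18811587 counts, and levels are given as CPM, counts per 1000000 of the TMM-scaled library, in which 1 CPM was 14.7 to 18.2 reads. No reads at all leaves room for 0.164 to 0.204 CPM, the value of 3 counts, depending on the library. Ring1, the gene of Ring1a, was lower in all 3 mutant libraries but not absent, at 59, 119 and 73 reads against 247, 352 and 372 in the controls (log2 fold change -1.98, edgeR adjusted p = 0.0113). Rnf2, the gene of Ring1b, had a mean of 59.8 CPM in controls and 67.1 CPM in mutants and was not called (0.17, edgeR adjusted p = 0.736). Keratinocyte markers were high: Krt5, the basal keratin, had 7911 ± 804 CPM in the controls and 9845 ± 1706 CPM in the mutants (SD, n = 3 each, as for all values that follow, control first). Ly6a, which encodes Sca1, was at 0.852 ± 0.411 and 1.23 ± 0.245 CPM, although the sorting text in the labels describes a gate positive for EpCAM and Sca1, for interfollicular epidermis. The labels' text holds no gate for follicle cells.

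The regulatory sequence before the start of 4 members is shown. Col5a1 and Col3a1 contrast in CpG content, while Tnc and Bgn hardly differ in it. Col5a1 and Tnc had a fold change above 0 on the log2 scale, and Col3a1 and Bgn had one below. None of the 4 was called by edgeR, and a link between CpG content and change was not tested. CpG-rich promoters are the usual docking sites of Polycomb complexes. Col5a1 and Col3a1 are fibrillar collagens at the 2 ends of the CpG range, Tnc had the largest rise in CPM of all members, and Bgn was the member with the lowest p among those lower in mutants. Each run is the 250 bases upstream of a RefSeq start on GRCm38.p6, 5′ to 3′ on the gene's strand, with every CpG in capitals. Col5a1 lies at chr2:27886175-27886424 (plus strand), Col3a1 at chr1:45311288-45311537 (plus), Tnc at chr4:64047016-64047265 (minus) and Bgn at chrX:73483351-73483600 (plus).
Col5a1: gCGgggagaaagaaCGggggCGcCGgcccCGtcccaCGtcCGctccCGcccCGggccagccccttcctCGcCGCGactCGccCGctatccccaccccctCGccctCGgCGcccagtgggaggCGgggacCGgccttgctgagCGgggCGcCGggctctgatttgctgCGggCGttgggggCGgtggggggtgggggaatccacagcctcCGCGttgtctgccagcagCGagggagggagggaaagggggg
Col3a1: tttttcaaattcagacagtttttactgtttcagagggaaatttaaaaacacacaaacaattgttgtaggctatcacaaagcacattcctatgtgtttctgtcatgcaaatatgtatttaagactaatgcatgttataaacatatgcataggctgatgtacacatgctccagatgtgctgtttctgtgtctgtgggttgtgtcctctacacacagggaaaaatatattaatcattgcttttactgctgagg
Tnc: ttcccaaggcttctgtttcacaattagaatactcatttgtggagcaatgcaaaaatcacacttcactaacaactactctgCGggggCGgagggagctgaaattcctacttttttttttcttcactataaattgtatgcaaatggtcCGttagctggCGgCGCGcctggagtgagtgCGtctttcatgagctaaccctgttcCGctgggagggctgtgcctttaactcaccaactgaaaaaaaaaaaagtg
Bgn: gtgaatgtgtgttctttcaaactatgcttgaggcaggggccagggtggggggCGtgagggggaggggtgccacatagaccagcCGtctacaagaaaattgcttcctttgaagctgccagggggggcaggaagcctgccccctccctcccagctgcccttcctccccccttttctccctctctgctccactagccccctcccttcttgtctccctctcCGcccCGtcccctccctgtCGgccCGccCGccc
Col5a1 has 28 CpG in this window, Tnc 8, Bgn 7 and Col3a1 none. Tnc has a second RefSeq start, whose overlapping window has 10 CpG and is not printed, since 79 of its bases lie in an annotated exon. The RefSeq table held 27 starts for 21 of the 37 members, and their windows had a median of 7 CpG (range 0 to 28) against 6 for all 32851 starts (interquartile range 2 to 16). The windows of the called members Fbn1 (13 CpG) and Fbln2 (8 CpG) lie in annotated exons and are not printed. Short motifs were searched on both strands. The Sp1-type letters GGGCGG, which contain a CpG, were in 51.9% of member windows and 32.7% of all windows. CCAAT was in 22.2% and 33.8%, and TATAAA in 18.5% and 12.4%. CCAAT and TATAAA hold no CpG. A match is a description of these letters only.

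In the mutants 3 members rose and none fell. They were Thy1, a surface glycoprotein of fibroblasts, neurons and T cells, Fbn1, the main microfibril protein fibrillin-1, and Fbln2, the microfibril-binding protein fibulin-2. The test was the quasi-likelihood test of edgeR over all 14345 genes, and a gene was called at a Benjamini-Hochberg adjusted p under 0.05. Over all genes 2.59% were called up and 0.404% down. The median log2 fold change of the 35 members was 0.21, against -0.003 for all genes tested, with 22 members above 0 and 13 below, where 49.7% of all genes were above 0. At an unadjusted p under 0.05 there were 9 members higher and 1 lower, where 14.9% of all genes passed in either direction. In 8 members every mutant library was above every control library, and in none was it the reverse, where 12.1% and 9.15% of all genes were separated in these directions. With the replicate number as a block, 10 members were called up and 1 down, where 6.09% and 3.29% of all genes were. DESeq2 called 7 members up and none down, where it called 5.15% and 1.72% of all genes.

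**Figure D1:**
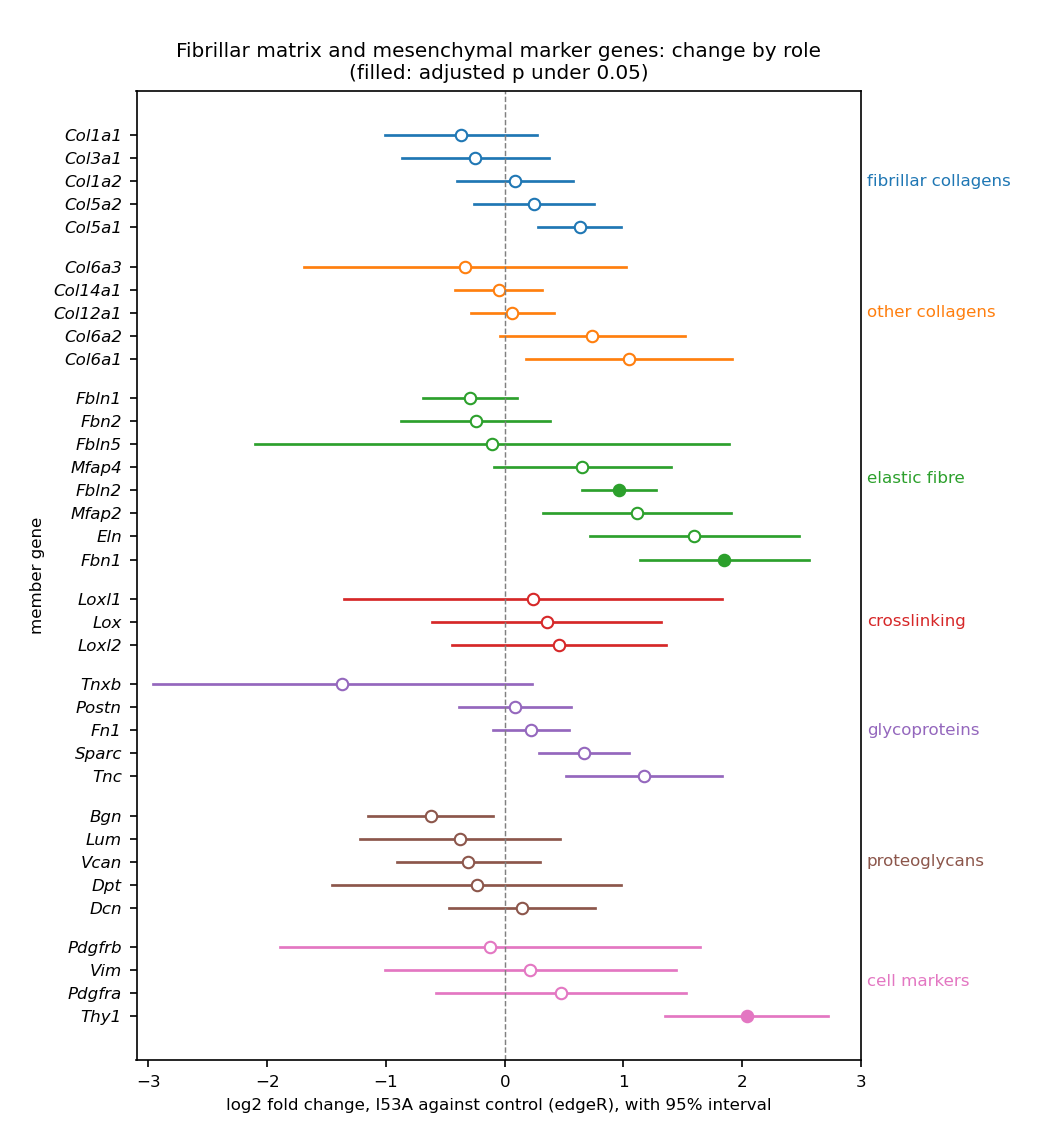
Log2 fold change of the 35 tested members (x axis, mutant, labelled I53A, against control, edgeR) with its 95% interval, unadjusted over genes, 1 row per gene and coloured by role. Filled points are Fbln2, Fbn1 and Thy1, the 3 members with an adjusted p under 0.05, and the other 32 are open.

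The elastic fibre and microfibril proteins held 2 of the 3 called members, out of 8 tested and 9 listed. Fbn1 (ENSMUSG00000027204.13, chromosome 2, 125300594 to 125507993, minus strand, GRCm38) was at 22.0, 13.7 and 36.7 CPM in the controls and 91.1, 94.99 and 75.3 CPM in the mutants. Every mutant library was above the highest control, and mutant 3 was the lowest of the mutants. The mean level went from 24.1 ± 11.6 to 87.1 ± 10.4 CPM, which is a log2 fold change of 1.85 (SE 0.32, edgeR adjusted p = 0.0137). The call was lost without control 1 (adjusted p = 0.0756), mutant 1 (0.0515) or mutant 2 (0.0633), while the log2 fold change stayed between 1.56 and 2.295 in the fits without 1 library.

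Fbln2 (ENSMUSG00000064080.12, chromosome 6, 91212455 to 91272540, plus strand) had the tightest values of the called members, 90.7, 90.5 and 87.4 CPM in the controls and 173, 167 and 182 CPM in the mutants. The groups were far apart relative to their spread. The log2 fold change was 0.96 (SE 0.14, edgeR adjusted p = 0.0063), and the gene was also called in each of the 6 fits without 1 library (adjusted p up to 0.0421).

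Close relatives of both proteins were not called. Fbn2, the fibrillin of embryonic tissue, was at 17.8 ± 0.658 and 15.0 ± 5.65 CPM (log2 fold change -0.24, 95% interval -0.87 to 0.38). There were 1.37 ± 0.704 reads of Fbn1 per read of Fbn2 in controls and 6.45 ± 2.59 in mutants, with no overlap between the groups. Fbln1, which also binds elastic fibres and fibronectin, was at 108 ± 15.1 and 88.5 ± 13.3 CPM (-0.29, interval -0.69 to 0.11). Reads of Fbln2 per read of Fbln1 were 0.839 ± 0.127 and 1.99 ± 0.204. These ratios were picked with the values in view and carry no test.

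Eln, the elastin gene, was at 9.33, 5.77 and 5.56 CPM in the controls and 11.5, 18.8 and 32.2 CPM in the mutants. The groups did not overlap, but the mutant libraries differed among themselves by more than the gap to the controls. The log2 fold change was 1.598 (SE 0.39, edgeR adjusted p = 0.0652, or 0.0425 with the replicate block), and Eln passed without mutant 1 (0.0442), with DESeq2 (0.00312), with library totals only (0.0494) and with no low-count filter (0.0154). Mfap2, the microfibril-associated glycoprotein MAGP1, went from 6.81 ± 2.55 to 14.7 ± 4.07 CPM (1.11, SE 0.36, edgeR adjusted p = 0.153, or 0.0399 with the block), again without overlap. Mfap4, an elastic fibre glycoprotein whose exons overlap Mapk7 on the other strand, was at 9.34 ± 1.46 and 14.7 ± 6.36 CPM and was not called. Fbln5, needed for elastic fibre assembly, was at 3.25 ± 3.07 and 3.03 ± 1.16 CPM, with 2 reads in control 1. Mfap5 was not tested, with 9, 21 and 3 reads in controls and 0, 8 and 3 in mutants.

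**Figure D2:**
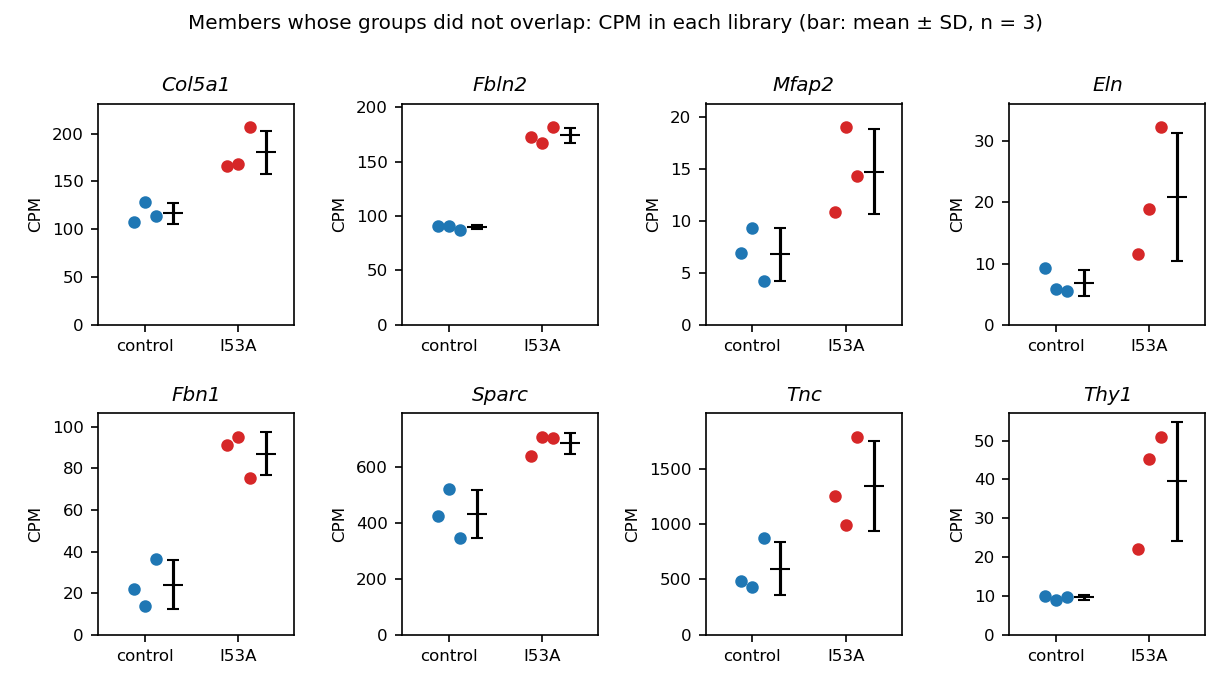
CPM (y axis, from 0) of the 8 members whose groups did not overlap, 1 panel per gene and 1 point per library, with the mean and SD of 3 libraries beside the points. Fbn1 is at 13.7 to 36.7 CPM in controls and 75.3 to 94.99 CPM in mutants, and Fbln2 is at 87.4 to 90.7 and 167 to 182 CPM.

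Among the cell markers 1 of 4 tested (5 listed) was called, Thy1. Thy1 (ENSMUSG00000032011.5, chromosome 9, 44043384 to 44048579, plus strand) was at 10.1, 8.97 and 9.76 CPM in the controls and 22.2, 45.4 and 50.9 CPM in the mutants. Controls were nearly equal, and mutant 1 was below the other mutants but above all controls. The mean level went from 9.61 ± 0.572 to 39.5 ± 15.2 CPM, with a log2 fold change of 2.04 (SE 0.31, edgeR adjusted p = 0.00761), and the gene was called in each of the 6 fits without 1 library (adjusted p up to 0.0423).

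Pdgfra, the PDGF receptor that marks dermal fibroblasts, was at 2.66, 2.82 and 7.04 CPM in controls and 7.51, 4.83 and 5.08 CPM in mutants. The groups overlapped, since control 3 was above mutants 2 and 3. Its log2 fold change of 0.47 had a 95% interval from -0.58 to 1.52, which covers both directions. Pdgfrb, the receptor of pericytes and fibroblasts, was at 2.05 ± 1.04 and 1.90 ± 1.95 CPM. Vim, the intermediate filament vimentin of mesenchymal cells, was at 29.0, 16.8 and 72.4 CPM in controls and 21.2, 38.8 and 77.3 CPM in mutants, with the library numbered 3 highest in each group. Twist2, a transcription factor of dermal fibroblasts (Dermo1), was not tested, with 7, 2 and 11 reads in controls and 14, 13 and 8 in mutants.

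None of the 5 fibrillar collagen genes was called by edgeR, with 1 at an unadjusted p under 0.05 (Col5a1, which DESeq2 called). Col1a1, the α1 chain of type I collagen (ENSMUSG00000001506.10, chromosome 11, 94936224 to 94953042, plus strand), was at 90.3, 142 and 163 CPM in controls and 63.7, 126 and 118 CPM in mutants. The groups overlapped, and library 1 was the lowest in each. Its log2 fold change of -0.37 had a 95% interval from -1.005 to 0.27 (edgeR adjusted p = 0.632). Col1a2, the partner chain of the same molecule, was at 95.5 ± 21.7 and 101 ± 22.2 CPM (0.08, interval -0.40 to 0.57). Col3a1, of the thin fibrils of young skin, was at 91.7 ± 29.1 and 77.2 ± 23.1 CPM (-0.25, interval -0.87 to 0.37). For these 3 genes a 2-fold rise lies outside the interval.

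Col5a1, the α1 chain of type V collagen, stood at the upper end of its class, with 107, 128 and 114 CPM in controls and 166, 168 and 207 CPM in mutants. All mutants were above all controls. The log2 fold change was 0.63 (SE 0.16, edgeR adjusted p = 0.0677, or 0.0126 with the replicate block). Col5a2, its partner chain, was at 62.2 ± 19.6 and 73.8 ± 6.42 CPM (0.24, interval -0.26 to 0.75). Reads of Col5a1 per read of Col5a2 were 1.99 ± 0.583 in controls and 2.44 ± 0.208 in mutants, and the groups overlapped. Reads of Col5a1 per read of Col1a1 were 0.929 ± 0.245 in controls and 1.90 ± 0.644 in mutants without overlap, whereas reads of Col3a1 per read of Col1a1 were 0.708 ± 0.159 and 0.761 ± 0.0315. These ratios carry no test.

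None of the 5 collagens of beaded microfibrils and fibril surfaces was called by edgeR or DESeq2, with 1 at an unadjusted p under 0.05, Col6a1. Col6a1, the α1 chain of type VI collagen, was at 6.88, 11.2 and 14.4 CPM in controls and 12.2, 22.2 and 32.9 CPM in mutants. The groups overlapped by mutant 1 alone, which was below control 3. Its log2 fold change was 1.05 (SE 0.39, edgeR adjusted p = 0.229, or 0.0167 with the replicate block). Col6a2, the α2 chain, was at 19.9 ± 7.38 and 33.2 ± 13.4 CPM (0.74, adjusted p = 0.368, or 0.0271 with the block). Col6a3, the α3 chain that fibroblasts add to the same molecule, was at 13.4 ± 9.69 and 10.7 ± 8.60 CPM (-0.34, interval -1.69 to 1.02). Reads of Col6a3 per read of Col6a1 were 1.29, 0.618 and 1.70 in controls and 0.369, 0.320 and 0.624 in mutants. Control 2 and mutant 3 were nearly equal in this ratio, so the groups overlapped.

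Col12a1, a collagen of fibril surfaces, was the most read gene of this class at 437, 394 and 421 CPM in controls and 516, 377 and 416 CPM in mutants. Its groups overlapped fully, and the 95% interval of its log2 fold change ran from -0.29 to 0.42. Col14a1, a relative on the same fibrils, was at 202 ± 32.0 and 195 ± 18.4 CPM (-0.05, interval -0.42 to 0.32).

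Adhesive and matricellular glycoproteins included the most abundant members, and none of the 5 was called by edgeR, with 2 (Tnc and Sparc) at an unadjusted p under 0.05 and called by DESeq2. Per kilobase of exon, Sparc stood at 114 CPM in controls, Postn at 93.2, Fn1 at 89.5 and Tnc at 76.8, against 3601 for Krt5 and 20.1 for Col1a1 on the same scale. Tnc, the gene of tenascin-C, an anti-adhesive protein of growing and healing tissue (chromosome 4, 63959785 to 64047015, minus strand), was at 486, 433 and 872 CPM in controls and 1257, 991 and 1786 CPM in mutants. The lowest mutant was above the highest control, and library 3 was the highest in both groups. The log2 fold change was 1.17 (SE 0.29, edgeR adjusted p = 0.0695, or 0.000213 with the replicate block). Tnc passed without control 3 (0.0053), with limma-voom (0.0472) and with DESeq2 (0.00458).

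Sparc, a collagen-binding protein also called osteonectin, was at 426, 519.5 and 347 CPM in controls and 640.3, 706 and 705 CPM in mutants, with no overlap. The log2 fold change was 0.67 (SE 0.17, edgeR adjusted p = 0.0741, or 0.00798 with the block). Fn1, fibronectin, was at 1120.45, 991 and 1025 CPM in controls and 1275, 1103 and 1271 CPM in mutants, where mutant 2 lay inside the control range. Its interval ran from -0.10 to 0.54. Its exons overlap an antisense transcript, Apol7d. Postn, periostin, a matricellular protein of the follicle sheath and dermis, was at 811 ± 111 and 862 ± 248 CPM and was not called. Tnxb, the tenascin of mature dermis, was at 2.63 ± 1.40 and 1.02 ± 0.690 CPM (-1.37, interval -2.96 to 0.23), so that the 2 tenascins had fold changes of opposite sign, the second of them uncalled in every alternative fit.

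Of 5 proteoglycans and dermatopontin, 4 had a log2 fold change below 0, and none was called by edgeR or DESeq2, with 1 (Bgn) at an unadjusted p under 0.05. Bgn, biglycan, was at 176, 346 and 262 CPM in controls and 149, 198 and 161 CPM in mutants, with control 1 inside the mutant range. The log2 fold change was -0.62 (SE 0.24, edgeR adjusted p = 0.240, or 0.0217 with the replicate block, the only member then called down). Vcan, versican, a large proteoglycan of the dermal papilla and of loose matrix, was at 699, 775 and 479 CPM in controls and 596, 658 and 324 CPM in mutants. Library 3 was the lowest in both groups, and the interval of the log2 fold change ran from -0.91 to 0.29.

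Dcn, decorin, one of the most abundant fibroblast transcripts, was at 339, 290.5 and 600.1 CPM in controls and 452, 562 and 347 CPM in mutants. Here control 3 was the highest library of all, and the interval ran from -0.47 to 0.76. Lum, lumican, was at 9.38 ± 2.13 and 7.22 ± 3.23 CPM, and Dpt, dermatopontin, at 5.48 ± 2.26 and 4.65 ± 3.23 CPM. Neither passed, with log2 fold changes of -0.38 and -0.24.

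The 3 lysyl oxidases were low, and none was called by edgeR or DESeq2 or had an unadjusted p under 0.05. Loxl2, a lysyl oxidase that acts on collagen IV and fibrillar collagen, was at 3.61, 10.2 and 5.45 CPM in controls and 7.84, 8.41 and 10.3 CPM in mutants, and control 2 lay within the mutant range. Lox was at 4.23 ± 1.76 and 5.42 ± 1.46 CPM and Loxl1, which acts on elastin, at 1.19 ± 0.766 and 1.40 ± 0.646 CPM. Their log2 fold changes were 0.46, 0.35 and 0.24, and the interval of each spanned 0.

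The members were also summed, library by library. Their summed level was 5451, 5699 and 6006 CPM in controls and 6831, 7117 and 7139 CPM in mutants. The group means of this sum differed by 1310.1 CPM. This is the net of 23 members with a higher mean in mutants, together 1609 CPM, and 14 with a lower mean, together -298.6 CPM. Tnc made up 46.5% of the higher part, and Vcan (-125 CPM) and Bgn (-91.8 CPM) most of the lower part. The summed level of the 5 fibrillar collagens overlapped between groups, at 397, 490.1 and 605 CPM and 440, 581 and 584 CPM. So did the proteoglycan sum, at 1226, 1430 and 1356 CPM against 1207, 1437 and 839.5 CPM. For 17 of the 35 tested members the 95% interval excluded a 2-fold rise, and for 25 it spanned 0.

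Within a group the members shifted partly with the library. Control 3 was the highest control for 18 of 35 members and control 1 for 6. Mutant 3 was the highest mutant for 17 members and mutant 1 for 4, while mutant 1 was the lowest for 18. Relative to the control means the median member was at -0.20, 0.005 and 0.22 (log2) in controls 1 to 3 and at 0.10, 0.43 and 0.40 in mutants 1 to 3, so that control 3 was above mutant 1. Dcn, Col3a1 and Vim were highest in control 3 among controls, and Vcan, Postn and Sparc were lowest there. From its group mean the median member deviated by -0.20 to 0.22 (log2) over the libraries, and the median of all genes tested by -0.022 to 0.018. Over the 595 pairs of tested members, deviations from the group means had a median correlation of 0.15, and 60.3% of pairs were positive. Neither the pair correlations nor the counts of highest and lowest libraries were made for other genes. Single pairs ran from 0.99 (Lox with Vim) to -0.96 (Fbn1 with Sparc). These are the extremes of 595 values, each over only 6 libraries, and no single pair was tested.

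**Figure D3:**
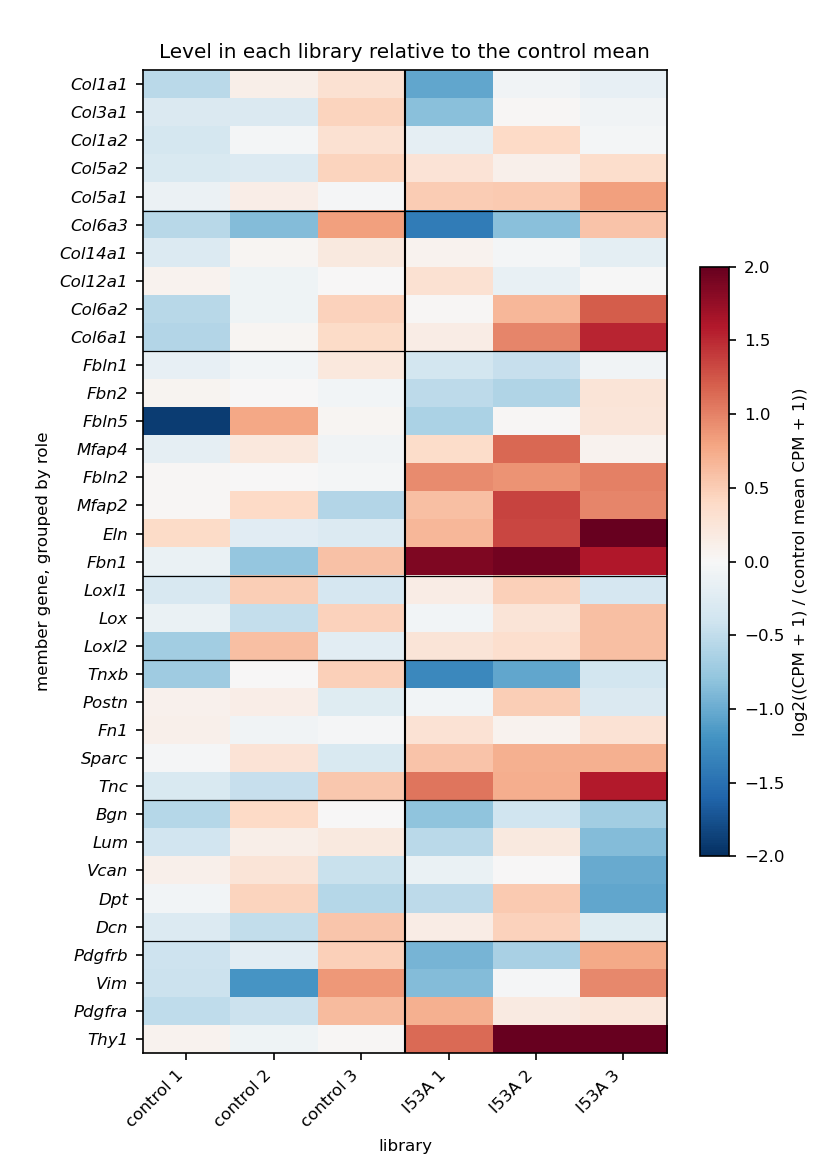
Level of the 35 tested members (rows, grouped by role) in each of the 6 libraries (columns) as log2((CPM + 1) / (control mean CPM + 1)), red above and blue below the control mean, with the colours at their limit beyond 2 in size. Thy1, Fbn1 and Fbln2 are red in all 3 mutant columns, whereas the rows of Col1a1, Col3a1, Dcn and Vim change colour within a group.

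Other dermal fibroblast markers, none of them members, were counted beside the members. Of 28 listed and 23 tested, 2 rose and none fell, where 2.59% and 0.404% of all genes did. The summed level of the list was 369 to 491 CPM in controls and 497 to 563 CPM in mutants. The direction was mixed, with 13 log2 fold changes above 0 and 10 below (median 0.15), where 49.7% of all genes were above 0. In 6 markers every mutant library was above every control library, and in 2 it was the reverse. Over all genes these shares were 12.1% and 9.15%. Sfrp2, a secreted Wnt modulator of dermal fibroblasts, rose from 7.25 ± 1.75 to 47.5 ± 6.56 CPM (log2 change 2.71, edgeR adjusted p = 0.000526), and was called without each library in turn. Dlk1, an imprinted gene of dermal fibroblast progenitors, rose from 4.26 ± 1.20 to 14.6 ± 3.72 CPM (1.77, adjusted p = 0.0218), a call lost without control 1, mutant 2 or mutant 3 (adjusted p up to 0.118). Gas1, among the most abundant of the list, was at 136 ± 18.1 and 151 ± 15.5 CPM and was not called. Fap, Tcf21, Pi16, Clec3b and Ly6c1 were under 1 CPM in every library, and no marker of any cell type list was at 0 in all 6. The part of such cells in the rises of Thy1, Fbn1 and Fbln2 was not tested.

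Dermal papilla markers summed to 82.5 to 192 CPM in controls and 219.9 to 291 CPM in mutants. Of 11 tested (16 listed), 2 rose and none fell, where 2.59% and 0.404% of all genes did. There were 8 log2 fold changes above 0 and 3 below, where 49.7% of all genes were above 0. DESeq2 called 3 up, and the fit with the replicate block called 3 up, where they called 5.15% and 6.09% of all genes up. Prom1, which encodes CD133 and is 1 of the 2, rose from 3.93 ± 1.95 to 22.6 ± 2.28 CPM (2.52, edgeR adjusted p = 0.00782). Trps1, a transcription factor of the papilla, was at 94.3 ± 45.9 and 192 ± 28.9 CPM (adjusted p = 0.115, or 0.00656 with the block). Much of the summed level of the list, and of its difference between groups, was thus Trps1, which edgeR did not call without the block. Fgf7 and Fgf10, growth factors of the papilla, were under 1 CPM in every library. The part of papilla cells in the rises of the members was not tested.

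edgeR called no gene in the lists of smooth muscle and pericyte (10 tested), endothelial (6), immune (8), melanocyte (5), Schwann (3), skeletal muscle (2) and adipocyte (4) markers, with 2 smooth muscle and pericyte genes and 1 immune gene at an unadjusted p under 0.05. DESeq2 called 1 gene down in each of those lists and none in the others. With the replicate block 1 gene was called, Cd68, a macrophage marker, at 36.7 ± 7.77 and 21.6 ± 4.42 CPM (adjusted p = 0.145, or 0.019 with the block). The summed levels overlapped between groups in all of these but the endothelial list. Endothelial markers summed to 17.3 to 19.1 CPM in controls and 19.8 to 40.9 CPM in mutants. Immune markers summed to 62.1 to 144 CPM and 38.6 to 66.2 CPM, with Cpa3, a mast cell protease, at 86.2 CPM in control 3 and 30.0 CPM in mutant 3 and at most 12.6 CPM elsewhere. Of 14 follicle and keratinocyte markers 1 fell and none rose, where 0.404% and 2.59% of all genes did. It was the stem cell receptor gene Lgr5, which went from 178 ± 37.7 to 83.7 ± 1.98 CPM (-1.09, edgeR adjusted p = 0.0125). That call was lost without control 2, mutant 1 or mutant 2 (adjusted p up to 0.0684). With the block 2 of these markers were called up, Krt5 (0.0476) and Krt17 (0.00366), and 3 down, Lgr5 (0.00201), Shh (0.0056) and Edar (0.0385). Over all genes the block called 6.09% up and 3.29% down. DESeq2 called 1 marker up and 1 down, where it called 5.15% and 1.72% of all genes.

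**Figure D4:**
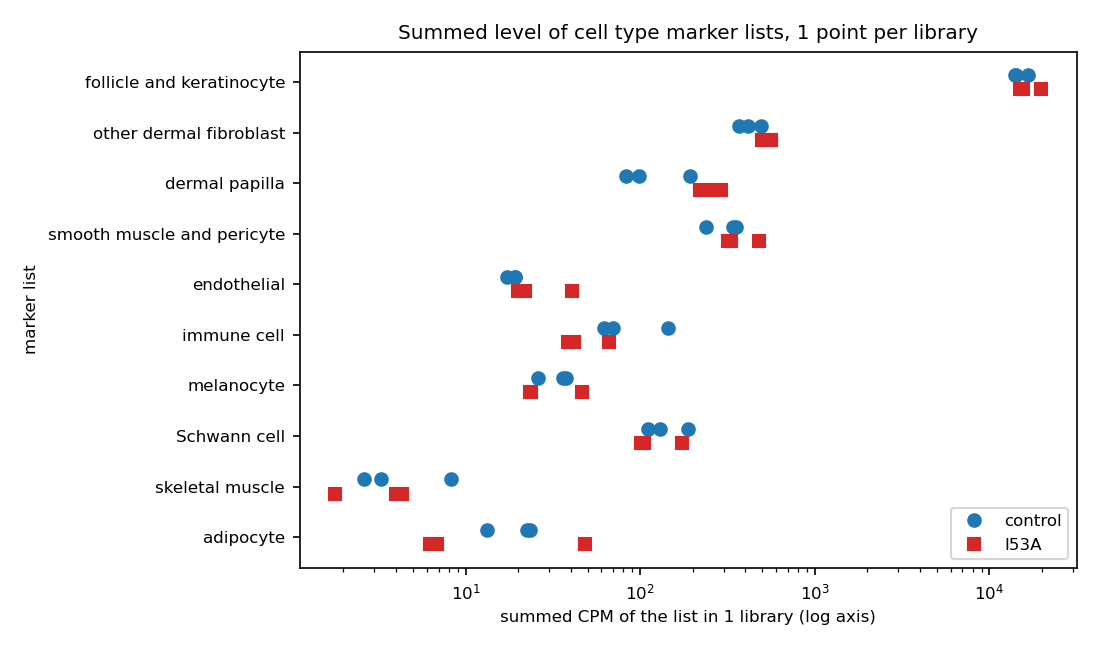
Summed CPM (x axis, log scale) of each cell type marker list, 1 point per library, circles for control and squares for mutant. Follicle and keratinocyte markers lie at 13911 to 19820.0 CPM, the other dermal fibroblast markers at 369 to 563 CPM, and the groups are apart for the fibroblast, papilla and endothelial lists.

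Genes that make and modify collagen gave 1 call among 21 tested (23 listed), where 3% of all genes were called. Plod2, the lysyl hydroxylase of collagen telopeptides, rose from 35.8 ± 3.81 to 68.5 ± 4.72 CPM (0.94 on the log2 scale, edgeR adjusted p = 0.0196), a call lost without control 1, mutant 1 or mutant 2 (adjusted p up to 0.104). Of the 21, 18 had a log2 fold change above 0 (median 0.36), where 49.7% of all genes did. At an unadjusted p under 0.05 there were 5, where 14.9% of all genes passed. In 5 every mutant library was above every control library, and in 1 it was the reverse, where these shares were 12.1% and 9.15% over all genes. DESeq2 called 2 up and 1 down, where it called 5.15% and 1.72% of all genes. P3h4, a partner of prolyl and lysyl hydroxylases, was at 10.7 ± 0.530 and 19.9 ± 5.58 CPM without overlap (0.89, edgeR adjusted p = 0.124). P4ha2, a prolyl 4-hydroxylase subunit, was at 5.39 ± 0.976 and 9.77 ± 1.03 CPM, also without overlap (0.86, adjusted p = 0.201). Serpinh1, the collagen chaperone HSP47, was at 53.1 ± 5.36 and 72.8 ± 16.1 CPM, and Tll1, a procollagen C-proteinase, at 40.2 ± 11.6 and 19.8 ± 7.44 CPM (adjusted p = 0.148, or 0.0106 with the replicate block).

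Of 11 tested collagens of other fibrils and stroma (14 listed), 2 rose and none fell, where 2.59% and 0.404% of all genes did. Log2 fold changes were above 0 in 6 and below 0 in 5. An unadjusted p under 0.05 was found for 4, where 14.9% of all genes passed. These were the 2 that rose and 2 uncalled genes that were lower in mutants. The lower genes were Col11a2 (-0.99, edgeR adjusted p = 0.258), without overlap between the groups, and Col23a1 (-0.74, 0.287), with overlap. Col18a1, a basement membrane collagen and source of endostatin, rose from 97.01 ± 3.99 to 214 ± 44.0 CPM (1.14, edgeR adjusted p = 0.00814, or 0.0501 without control 1). Col2a1, the cartilage collagen, had 1, 0 and 6 reads in controls and 82, 54 and 24 in mutants (adjusted p = 0.0461), and was called in only 1 of the 6 fits without 1 library, that without control 3 (adjusted p up to 0.176). None of 20 tested proteins of elastic fibres and proteoglycans outside the members was called, with 2 at an unadjusted p under 0.05 and 1 called up by DESeq2. Fmod, fibromodulin, was at 1.40 ± 0.200 and 6.26 ± 3.10 CPM (adjusted p = 0.0588, or 0.0442 with the block).

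Of 19 matrix receptors 1 was called, where 3% of all genes were. Log2 fold changes were above 0 in 10 and below 0 in 9 (median 0.03). At an unadjusted p under 0.05 there were 8, where 14.9% of all genes passed. DESeq2 called 3 up and none down, where it called 5.15% and 1.72% of all genes. Mrc2, which takes up collagen for degradation, rose from 8.29 ± 4.39 to 26.5 ± 2.90 CPM (1.68, edgeR adjusted p = 0.0307), a call lost without control 2 or any 1 of the mutants (adjusted p up to 0.127). With the replicate block 4 receptors were called up and 1 down, where 6.09% and 3.29% of all genes were. Itga11, a collagen receptor chain of fibroblasts, was at 3.13 ± 1.26 and 8.01 ± 2.43 CPM (adjusted p = 0.149, or 0.0386 with the block), and Itga1, another collagen receptor chain and the receptor called down with the block, was at 41.9 ± 22.7 and 20.4 ± 4.94 CPM (0.186, or 0.0178). Itgb1, the common β1 integrin chain, was at 245 ± 10.8 and 252 ± 22.2 CPM. Itga5, the fibronectin receptor chain, was at 62.6 ± 19.1 and 131 ± 63.8 CPM (adjusted p = 0.141, or 0.0026 with the block). None of 14 tested matrix proteases and inhibitors was called, with 3 at an unadjusted p under 0.05 and DESeq2 calling 1 up and 1 down. Adamts1, a protease of versican, was at 603 ± 107 and 299.99 ± 121 CPM (adjusted p = 0.0882, or 0.00545 with the block), and Timp2 at 44.5 ± 24.8 and 105 ± 12.8 CPM (0.0919, or 0.00653). None of 8 tested mesenchymal transition factors and cadherins was called, with 2 at an unadjusted p under 0.05 and none called by DESeq2. S100a4, a calcium-binding protein used as a fibroblast marker, was at 0.249 ± 0.166 and 1.66 ± 1.40 CPM without overlap (2.70, edgeR adjusted p = 0.173). Cdh11, the cadherin of mesenchymal cells, was at 8.30 ± 2.33 and 14.9 ± 5.68 CPM (0.84, adjusted p = 0.307). Cdh1, the epithelial cadherin, was at 1270.2 ± 173 and 1723 ± 551 CPM (0.44, adjusted p = 0.411, or 0.0456 with the block). Snai2, a transcription factor that represses Cdh1, was at 305 ± 144 and 214 ± 26.1 CPM (-0.51, adjusted p = 0.473), and Twist1 was under the level for testing.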

How the data were processed

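RNA was measured in 3 control and 3 mutant libraries. Per the labels' protocols, 10 ng of total RNA was amplified with a low-input kit, 100 ng of cDNA entered each library, and single reads of 100 nucleotides were sequenced. The authors deposited raw read counts, whole numbers by gene symbol, in a separate file for each library. The submitters' processing notes name TopHat2 2.0.13, Cufflinks 2.2.1, HTSeq 0.6.1, DESeq2 1.6.3 and mm10, with no role or order. Strand setting and annotation were not given in the sources used here, so reads of overlapping genes on opposite strands cannot be told apart. The cDNA was amplified and carries no molecular identifiers, so reads can repeat a molecule and floors cover counting error only.

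Counts were tested with edgeR 4.0.16 (R 4.3.3; TMM factors, filterByExpr, group as the only term, quasi-likelihood test, two-sided, Benjamini-Hochberg adjustment over 14345 genes). The steps were tested on simulated data. The SE was taken from the F statistic, and 95% intervals are not adjusted over genes. Lengths and positions are from GENCODE vM21 (GRCm38), and promoters from RefSeq (GRCm38.p6). No pair of libraries agreed within sampling noise (chi-square per degree of freedom at least 25.1 over 15 pairs). The members and lists were chosen with earlier results of these data known. Values per library are given for called members and, in each of 7 role classes, for the member with the highest mean and that with the smallest p. Those of Col1a1, Dcn, Pdgfra, Sparc, Eln and other uncalled members outside this rule were added after their values were seen. Other lists give called genes and some of those with the smallest p, 4 at most by the rule, and beyond it genes called only with the replicate block. Gas1, Cpa3, Serpinh1, Itgb1, Itga1, Twist1 and markers under 1 CPM were added for their level or role after their values were seen.

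Both groups carry replicate numbers 1 to 3. Deviations from group means correlated at 0.168 to 0.363 between libraries of the same number and at most 0.0891 between others, above the minimum of 0.1 for treating numbers as pairs. The pairing comes from the data and not from the labels. Other size factors, filters, DESeq2 1.42.0, limma 3.58.1 and leaving out each library were tried. One result in the dermal papilla list is not reported here.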

Additional observations from a re-analysis of the deposited data

How the results depend on the processing

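The 3 member calls became 6 with library totals only, 6 with no low-count filter, 7 with DESeq2, 11 with the replicate block and 2 to 4 without 1 library. Over all genes the 430 calls became 487 with library totals only, 636 with no low-count filter and 986 with DESeq2. They became 1345 with the replicate block and 163 to 664 without 1 library. Of the 430, 372 were up and 58 down, and with the block 873 and 472. The members' median log2 fold change of 0.21 stayed between 0.11 and 0.38 over all 14 alternatives, the lowest without control 1 and the highest without control 3. Thy1 and Fbln2 were called in each of the 14 alternatives and Fbn1 in 11. Of 35 members, 23 kept the sign of their fold change in every alternative where they were tested, and no called value changed sign. The block changed no member calls other than the 8 given with their values. No scaling moved the median of all genes by 0.1. Mfap5 and Twist2 had too few reads to be tested. The intervals of Tnxb, Fbln5, Pdgfrb and Loxl1 were wide, and the parts of depth and of spread between libraries in that were not tested.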
